A study of Mus musculus with 12 samples.

Results

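Gamma delta T cells were examined among CD45+ cells isolated from MC38 tumors, a mouse colon adenocarcinoma line grown subcutaneously in C57BL/6 mice, and profiled by single-cell RNA sequencing. The cells were chosen by measured values: a barcode was kept as a gamma delta T cell when it held at least 1 unique molecular identifier (UMI, 1 counted transcript) of the CD3 genes Cd3d, Cd3e or Cd3g and at least 1 of Trdc, the constant gene of the T cell receptor (TCR) delta chain. It also had to hold none of Cd8a, Cd8b1, Cd4, Foxp3, Ncr1, Adgre1 and Csf1r. This gave 123 of the 128912 cells that passed the quality filter, or 0.0954% of them (95% exact binomial interval 0.0793 to 0.114), and 0.871% of the 14115 CD3-positive cells (0.725 to 1.04). The study had 4 groups of 3 mice, all carrying MC38 tumors taken at day 17. Mice received the EZH2 inhibitor PF-06821497 (EZH2i) at 100 mg/kg daily for 7 or 16 days, or vehicle for the same 7 or 16 days. EZH2 is the methyltransferase of the Polycomb repressive complex PRC2. The deposited matrix pools 12 libraries by number, and the numbers are not tied to a mouse or group in the labels. All cells therefore count as 1 pooled sample, no comparison of EZH2i with vehicle was made, and no p-value is given. Intervals in the text cover counting error only.

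Gamma delta T cells carry a receptor built from a gamma and a delta chain in place of the alpha and beta chains of CD4+ and CD8+ T cells. In mice they commit in the thymus to producing interleukin 17 or interferon gamma, and the variable (V) segment of the gamma chain goes along with tissue and program: cells with the Vγ6 chain, paired with the Vδ1 chain encoded by Trdv4, seed barrier tissues and make interleukin 17. The V segments Vγ4, Vγ5, Vγ6 and Vγ7 rearrange to the constant gene Tcrg-C1, Vγ1 to Tcrg-C4 and Vγ2 to Tcrg-C2. Alpha beta T cells also transcribe gamma genes, so a gamma chain UMI alone does not name a gamma delta T cell. In tumors both kinds of gamma delta T cell are known, cytotoxic cells that make interferon gamma and interleukin 17 producers that attract myeloid cells.

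The gamma constant genes Tcrg-C1, Tcrg-C2 and Tcrg-C3 are near-identical copies on chromosome 13 and Tcrg-C4 is less alike, so the first 90 bases of their transcripts are shown to let the reader see what separates them. In the GENCODE M21 annotation of GRCm38 (mm10), Tcrg-C1 lies at chr13:19214103-19217024 (+), Tcrg-C2 at chr13:19304649-19307551 (-), Tcrg-C3 at chr13:19260884-19263528 (+) and Tcrg-C4 at chr13:19344558-19352756 (+). Capitals mark bases that differ from Tcrg-C1.

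Tcrg-C1: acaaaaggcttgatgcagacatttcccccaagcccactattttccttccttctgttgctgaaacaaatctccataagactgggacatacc
Tcrg-C2: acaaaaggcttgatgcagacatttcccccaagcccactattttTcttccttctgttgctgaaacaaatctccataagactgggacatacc
Tcrg-C3: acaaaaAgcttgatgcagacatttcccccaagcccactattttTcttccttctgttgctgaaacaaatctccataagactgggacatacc
Tcrg-C4: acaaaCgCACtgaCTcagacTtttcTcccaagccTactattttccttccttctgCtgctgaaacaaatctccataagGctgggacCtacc

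Tcrg-C2 differed from Tcrg-C1 at 1 of these 90 bases, Tcrg-C3 at 2 and Tcrg-C4 at 12. Over the whole aligned transcript Tcrg-C1 and Tcrg-C2 were 95.9% identical, and Tcrg-C1 and Tcrg-C4 67.3%. Over the last 400 bases, which bear most on 3' reads, 371 of the 395 aligned bases of Tcrg-C1 and Tcrg-C2 were identical (93.9%). Counting may therefore split or drop reads between Tcrg-C1, Tcrg-C2 and Tcrg-C3, and their separate values are uncertain. Trdc lies at chr14:54142851-54148868 (+), and the V segment Trdv5 overlaps its end on the opposite strand, at chr14:54148662-54149294 (-).

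Of 347 kept cells with a Trdc UMI, 213 held a CD3 UMI, and 90 of these were lost to the excluded genes. The macrophage genes Adgre1 or Csf1r were present in 67 of the 213 and Cd8a or Cd8b1 in 39, while Foxp3 was present in 0. Of the 123 cells kept, 58 held a single Trdc UMI, 46 held 2 to 5 and 19 held over 5, the highest being 39. The barcodes were shallow, with a median of 1830 UMIs and 911 genes per cell, beside 2937 UMIs in CD8 T cells, 3319 in CD4 T cells, 2983 in NK cells, 1367 in B cells and 7684 in macrophages. These other gates were drawn by the same kind of rule and held 3844 CD8 T, 771 CD4 T, 239 NK, 214 B and 59446 macrophage barcodes. No pair of the 123 cells shared a barcode sequence, although 5 of the sequences also occurred in another library. Ptprc, which encodes the CD45 used to isolate the cells, was detected in 76.4% of gamma delta T cells and 88% of CD8 T cells.

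Gamma delta T cells were found in every library, but unevenly. Libraries 1 to 12 held 8, 8, 4, 6, 17, 43, 3, 15, 8, 2, 6 and 3 of them, so that library 6 alone gave 43 of 123 cells and 80 remained without it. As a share of CD3-positive cells the libraries ran from 0.310% to 4.48% with a median of 0.964%. The highest value, in library 4, rested on 6 cells among 134 CD3-positive cells (interval 1.66 to 9.49), and without that library the highest was 1.88%. Library 4 was also the one in which heat shock and immediate early genes took the largest share of UMIs in these cells, 1.25% against a median of 0.427% over libraries, and their part in the result was not tested. Libraries 1 to 6 held Y-linked transcripts, at 128 to 209 CPM (UMIs of a gene over all UMIs of the cells, scaled to a common total), and libraries 7 to 12 held Xist, at 658 to 870 CPM, whereas the study's methods describe the mice as female. Libraries 1 to 6 gave 86 of the cells and libraries 7 to 12 gave 37.

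**Figure D1:**
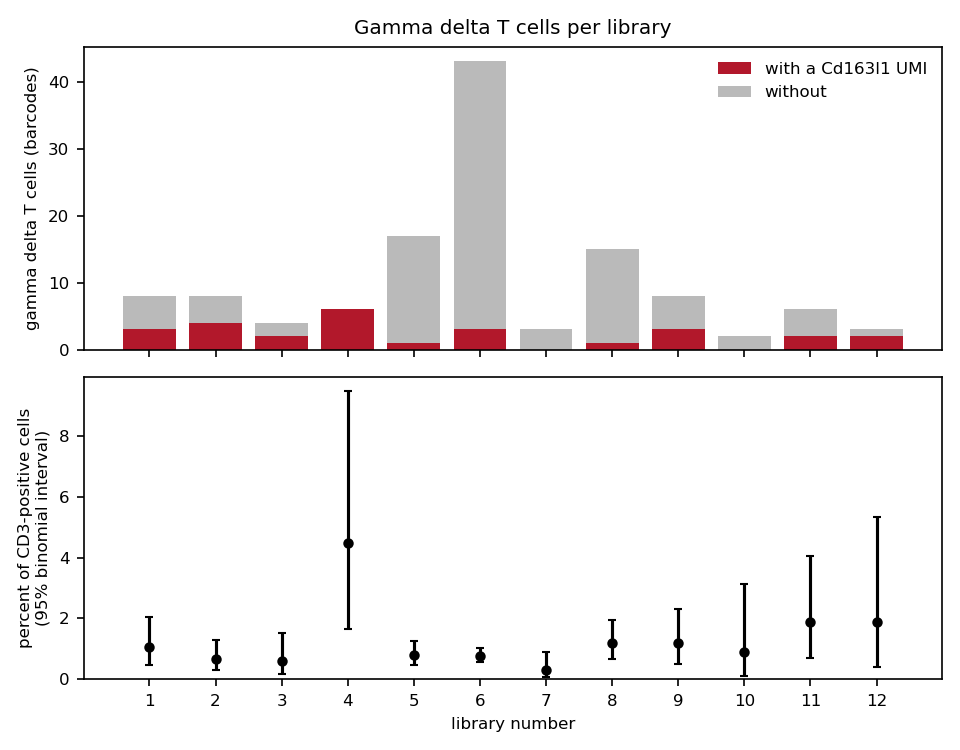
Upper panel: number of gamma delta T cell barcodes in each of the 12 libraries, split by whether a Cd163l1 UMI was present (red) or not (grey). Lower panel: the same cells as a percent of the CD3-positive cells of the library, with 95% exact binomial intervals. Library 6 held the most cells (43), and all 6 cells of library 4 had a Cd163l1 UMI.

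The label was checked against Tcrg-C1 and Cd163l1, the marker genes the rule did not use. Tcrg-C1 was detected in 39 of 123 gamma delta T cells (31.7%, 23.6 to 40.7), in 1.59% of CD8 T cells, 3.89% of CD4 T cells, 0.418% of NK cells and 0 of 214 B cells. In CPM of summed UMIs it was at 249 in gamma delta T cells and 6.42 in CD8 T cells, a ratio of 38.7 (28.8 to 52.1). Cd163l1, a scavenger receptor gene known from interleukin 17-producing gamma delta T cells, was detected in 27 cells (22%, 15 to 30.3) and in 0.26% of CD8 T cells. It was detected in 0 of 771 CD4 T cells and 0 of 239 NK cells. Cd163l1 was not confined to the gate: of 63 kept cells with a UMI of it, 36 lay outside. Of these 36, 8 held Trdc, 11 held Cd8a and 17 held Adgre1 or Csf1r. Tcrg-C4 was detected in 28.5% of gamma delta T cells (20.7 to 37.3) and 6.22% of CD8 T cells, with a CPM ratio of 7.97 (6.05 to 10.4). Tcrg-C2 did not set the cells apart from CD8 T cells, at 23.6% and 19.6% with a CPM ratio of 1.18 (0.849 to 1.6). A UMI of any gamma constant gene was present in 53.7% of gamma delta T cells, against 24.3% of CD8 T cells.

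Most of the cells held alpha beta chain transcripts, and 85.4% of them had a UMI of Trac, Trbc1 or Trbc2. Trac was detected in 28.5% of gamma delta T cells (20.7 to 37.3) and 67% of CD8 T cells, with a CPM ratio of 0.497 (0.402 to 0.607). Trbc1 was at 48.8% and 51.7% and Trbc2 at 65% and 78.7% in the same gates, and NK cells also held Trbc1, at 56.9%. UMIs of alpha and beta V genes were rare in both gates: any Trav gene was detected in 2.44% of gamma delta T cells and 5.36% of CD8 T cells, and any Trbv gene in 1.63% and 5.05%. Members with a single Trdc UMI carried Tcrg-C1 in 9 of 58 cells (15.5%), those with more in 30 of 65 (46.2%). Just outside the rule, the 16 cells lost only to Cd8a or Cd8b1 held Tcrg-C1 in 1 and Trac in 10. CD3-positive cells that lacked only Trdc held Tcrg-C1 in 2.81% of 2989.

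**Figure D2:**
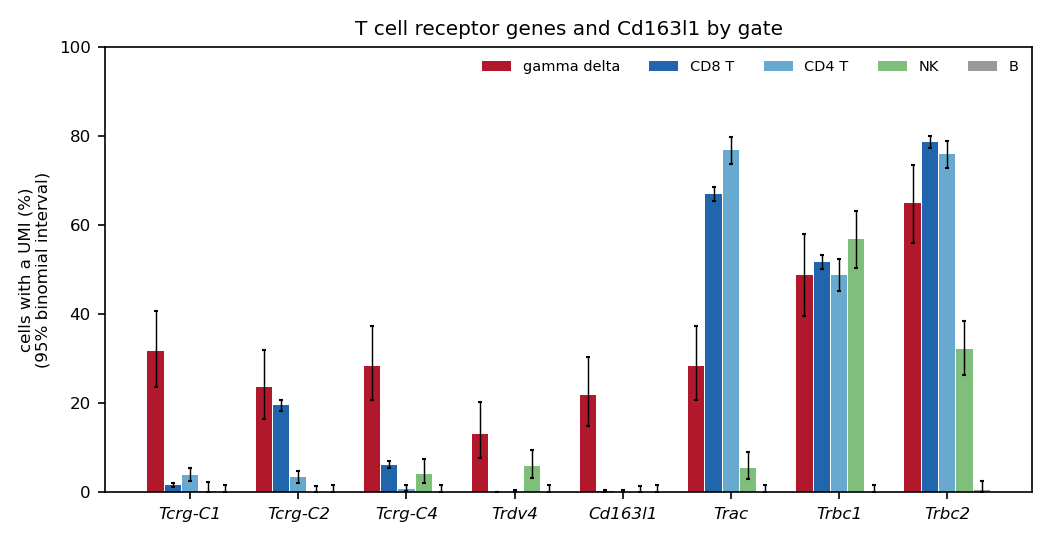
Share of cells with at least 1 UMI (y axis, percent) of TCR constant genes, Trdv4 and Cd163l1 in gamma delta T, CD8 T, CD4 T, NK and B cell gates, with 95% exact binomial intervals. Tcrg-C1, Trdv4 and Cd163l1 stand highest in gamma delta T cells, the intervals of Tcrg-C2 and Trbc1 overlap those of CD8 T cells, and Trac and Trbc2 are lower than in CD8 T cells.

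The label held less well in library 6, the largest contributor. There Tcrg-C1 was detected in 2 of 43 gamma delta T cells (4.65%, 0.568 to 15.8), against 37 of 80 (46.2%, 35 to 57.8) in the other libraries. A UMI of any gamma constant gene was present in 25.6% of these cells in library 6 (13.5 to 41.2), where CD8 T cells of the same library had 17.9% (15.6 to 20.2). In the other libraries the values were 68.8% (57.4 to 78.7) and 26.9%. A single Trdc UMI was all that 67.4% of the library 6 cells held, against 36.2% elsewhere, and their median depth was 1477 UMIs against 1999.5. Trac was detected in 39.5% of the library 6 cells (25 to 55.6), where CD8 T cells of that library had 43.5% (40.5 to 46.4), and in 22.5% of the others, where CD8 T cells had 76.5%. Its level in gamma delta T cells and CD8 T cells was 253 and 278 CPM in library 6, and 261 and 570 CPM in the other libraries. In the library 6 cells and the others Gzmb was detected in 62.8% and 26.2%, and Ccl5 in 88.4% and 55%. Tcrg-C4 was detected in 18.6% of the library 6 cells (8.39 to 33.4) and 5.05% of the CD8 T cells beside them (3.84 to 6.51), and Cd163l1 in 6.98% (1.46 to 19.1) and 0.0902% (0.00228 to 0.501). For Tcrg-C1, Tcrg-C2 and the gamma constant genes together, the intervals of the library 6 cells and of these CD8 T cells overlapped. The library 6 cells are therefore best read by their rule, as CD3-positive Trdc-positive cells. Without library 6, Cd163l1 was detected in 30% of the cells and Il17a in 11.2%. Every fold below that requires 1 direction in a library with at least 20 cells of both gates requires it in library 6 only.

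**Figure D3:**
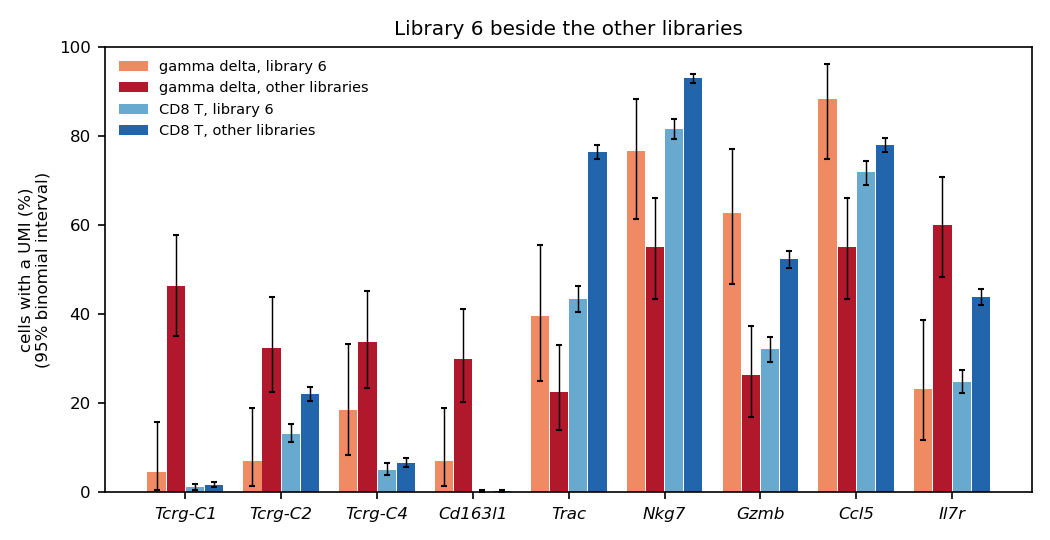
Share of cells with a UMI (y axis, percent, 95% exact binomial intervals) in library 6 and in the other libraries, for gamma delta T cells and CD8 T cells. The library 6 cells of the gamma delta gate are best read as CD3-positive Trdc-positive cells. Tcrg-C1 was in 4.65% of them and 46.2% of the gamma delta T cells of other libraries, while Ccl5 and Gzmb were more often detected in those of library 6. In CD8 T cells both were less often detected in library 6, Gzmb in 32.1% against 52.3% and Ccl5 in 71.9% against 78%.

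The V segments came from few cells. Trdv4 was detected in 16 gamma delta T cells of 9 libraries (13%, 7.62 to 20.3), in 1 of 3844 CD8 T cells, and in 5.86% of NK cells, a cell type in which Trdc itself was present in 9.62%. Tcrg-V6, the Vγ6 segment, was detected in 5 cells, 1 each in 5 libraries. Of these 5, 3 held Trdv4, 4 held Tcrg-C1, 4 held Cd163l1 and 3 held Il17a. Trgv2 was detected in 10.6% of gamma delta T cells and 10.4% of CD8 T cells. Tcrg-V1 was detected in 8.94% and 0.468%. Tcrg-V4 was detected in 7 cells, of which 6 came from library 8 and 1 from library 12, and all 7 held Tcrg-C1.

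The 6 library 8 cells with Tcrg-V4 were deep, from 6450 to 16834 UMIs, and had much in common. They held 5 to 11 Trdc UMIs each with a median of 9, and 5 of the 6 also held Tcrg-V1. All 6 held Trac (4 to 13 UMIs) and Trbc1 (1 to 18 UMIs), so UMIs of both receptor types lay in the same barcodes. Doublets were not called, and their part in this was not tested. All 6 held Gzmk, which encodes a granule protease, Nkg7 at 13 to 36 UMIs, and Ikzf2, which encodes the transcription factor Helios, while 5 held Eomes and 5 held Lag3. None held Cd163l1 or Il17a. The 9 other library 8 cells, median 6275 UMIs, had these genes too: Gzmk was detected in 4, Eomes in 3, Trac in 4, Ikzf2 in 6, Nkg7 in 7 and Lag3 in 4. Among the 108 cells of the other libraries, median 1700.5 UMIs, Gzmk was detected in 9, Eomes in 7, Lag3 in 11 and Trac in 25. Nkg7 was detected in 64, Ikzf2 in 50 and Trbc1 in 47 of the same 108, so these were common there too. The difference in depth stands beside these shares, and its part in them was not tested.

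The genes of interleukin 17 production come next, and the promoters of Il17a, the gene with the largest ratio over CD8 T cells, of Cd163l1, by which the cells are divided, and of Il23r, the receptor that sustains the program, are printed. AGGTCA, the core of elements bound by nuclear receptors such as that encoded by Rora of the type 17 list, was searched in them. The sequences run from 250 bases before to 50 after the start site in RefSeq on GRCm38.p6, and capitals mark AGGTCA or its reverse complement TGACCT. They lie at chr1:20730655-20730954 (+) for Il17a, chr6:67491806-67492105 (-) for Il23r and chr7:140218017-140218316 (+) for Cd163l1.

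Il17a: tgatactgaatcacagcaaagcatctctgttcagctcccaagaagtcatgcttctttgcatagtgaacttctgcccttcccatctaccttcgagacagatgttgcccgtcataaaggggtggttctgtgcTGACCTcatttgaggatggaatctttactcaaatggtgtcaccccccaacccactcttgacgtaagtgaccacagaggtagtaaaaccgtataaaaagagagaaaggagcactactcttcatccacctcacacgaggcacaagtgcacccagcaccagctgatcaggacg
Il23r: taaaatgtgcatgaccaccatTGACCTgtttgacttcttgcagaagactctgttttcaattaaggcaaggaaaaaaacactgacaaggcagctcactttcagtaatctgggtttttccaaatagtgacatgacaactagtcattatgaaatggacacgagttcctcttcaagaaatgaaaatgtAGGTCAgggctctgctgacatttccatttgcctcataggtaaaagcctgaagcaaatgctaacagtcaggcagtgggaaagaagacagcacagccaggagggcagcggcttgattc
Cd163l1: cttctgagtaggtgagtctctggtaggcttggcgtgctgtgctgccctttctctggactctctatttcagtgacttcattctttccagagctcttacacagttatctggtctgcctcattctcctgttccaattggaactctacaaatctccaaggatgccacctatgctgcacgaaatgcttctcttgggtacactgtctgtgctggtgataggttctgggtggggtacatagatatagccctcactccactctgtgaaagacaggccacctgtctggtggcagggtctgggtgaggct

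One match lay in the Il17a window, starting at base -120 from the start site, 2 lay in the Il23r window, and there was none in the Cd163l1 window. Of all 32851 RefSeq promoter windows of this length, 16.3% held the letters on either strand, so a match is a description of these windows. Of 9 genes asked for, 5 had a promoter in the table, and the windows of the other two, Tmem176a and Tmem176b, held no match, so 2 of the 5 genes had one.

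Il17a, which encodes the cytokine itself, was detected in 11 of 123 gamma delta T cells (8.94%, 4.55 to 15.4) of 8 libraries. It was detected in 0.0780% of CD8 T cells, 0.259% of CD4 T cells and 0 of 239 NK cells, and in 0.0135% of macrophages. The 11 cells held 120, 26, 16, 11, 6, 6, 4, 3, 3, 1 and 1 UMIs, so that 1 cell of library 8 held 60.9% of all 197. Those 11 cells were 11 of the 50 kept cells with Il17a and held 197 of 271 UMIs in the data set. Against CD8 T cells the log2 ratio of CPM was 11.14, with 10.17 without library 8 and 12.33 without library 6. Il17f, which encodes the related cytokine, was detected in 0 cells. By a bound of 3 over the number of cells, lower than the exact upper limit, this allows a share of up to 2.44% of cells with a UMI. It sets no limit on cells that express the gene.

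Il23r, the receptor chain for interleukin 23, was detected in 3 gamma delta T cells, and so were Il1r1, an interleukin 1 receptor gene, and Sox13, a transcription factor gene of the lineage. Blk, a Src family kinase gene used by B cells and by these cells, was detected in 15 (12.2%, 6.99 to 19.3), in 17.3% of B cells and in 0.0780% of CD8 T cells. Zbtb16, which encodes PLZF, the factor of innate-like lymphocytes, was detected in 8 cells. Serpinb1a, a protease inhibitor gene, was detected in 16 (13%) and 0.963% of CD8 T cells. Tmem176a and Tmem176b, neighbours on chromosome 6 on opposite strands whose annotated spans overlap, were detected in 22.8% and 25.2% of gamma delta T cells and in 7.47% and 8.45% of CD8 T cells. In macrophages they were at 51.9% and 62.1%. The overlap lies at the start of both genes, away from the 3' ends that bear most on 3' reads.

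Cd163l1 divided the cells. The 27 cells with a Cd163l1 UMI had a median of 1615 UMIs and the 96 without had 1956.5, so a missing UMI is not proof that the gene was off. Of the 17 other genes in the type 17 list, 16 were detected in gamma delta T cells and 14 of these were in a larger share of Cd163l1-positive cells. Of the 20 genes in the type 1 and cytotoxic list, all 20 were detected and were in a larger share of the deeper Cd163l1-negative cells, where 76.2% of the 2727 genes with at least 20 UMIs also were. For Klrk1 the shares were 22.2% and 24%, with the higher CPM in Cd163l1-positive cells, 238 against 175. Both lists were drawn up with earlier results of these data known. In CPM, 296 of those 2727 genes (10.9%) were at least 2-fold higher and 367 (13.5%) at least 2-fold lower in Cd163l1-positive cells. The counting interval of the ratio also excluded 1 for 179 (6.56%) and 143 (5.24%). Genes such as Il17a (194 and 3 UMIs), Serpinb1a (28 and 2) and Blk (25 and 2) reached 20 UMIs only through the set in which they were high, so no count or median over the lists is given for this rule.

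Il17a was detected in 10 of 27 Cd163l1-positive cells (37%, 19.4 to 57.6) and in 1 of 96 Cd163l1-negative cells (1.04%, 0.0264 to 5.67). Blk was detected in 13 and 2, Trdv4 in 14 and 2, Serpinb1a in 14 and 2, and Zbtb16 in 7 and 1 of the same cells. Tmem176b was detected in 20 (74.1%) and 11 (11.5%), and Maf, which encodes a transcription factor of the interleukin 17 lineage, in 19 (70.4%) and 24 (25%). Tcrg-C1 was detected in 18 (66.7%, 46 to 83.5) and 21 (21.9%, 14.1 to 31.5), while Tcrg-C2 was at 22.2% and 24% and Tcrg-C4 at 22.2% and 30.2%. The counting intervals of the 2 sets did not overlap for any gene named here other than Tcrg-C2 and Tcrg-C4. These genes were picked with the data known. The share of all genes without overlap was not counted, so nothing is read from this.

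Several type 1 and cytotoxic genes were rare in Cd163l1-positive cells, though Il2rb, an interleukin 2 and 15 receptor chain, was detected in 13 of 27 (48.1%) and Klrk1 in 6. Klrd1, the CD94 chain of NK receptors, was detected in 0 of 27 and in 54 of 96 (56.2%, 45.7 to 66.4). By the bound of 3 over the number of cells, 0 of 27 allows a share of up to 11.1% of cells with a UMI. That bound lies below the upper limit of the exact interval and does not limit expression. Cd27, the TNF receptor family gene that marks interferon gamma-committed gamma delta T cells, was detected in 0 and 32 (33.3%, 24 to 43.7). Nkg7, a granule membrane gene, was detected in 2 (7.41%) and 75 (78.1%), Gzmb in 2 (7.41%) and 46 (47.9%), and the chemokine gene Ccl5 in 3 (11.1%) and 79 (82.3%). Gzmk, Eomes, Ifng, Prf1, Xcl1 and Fasl were detected in 0 Cd163l1-positive cells and in 19, 15, 10, 14, 19 and 24 Cd163l1-negative cells. Trac was detected in 1 of 27 (3.7%, 0.0937 to 19) and 34 of 96 (35.4%, 25.9 to 45.8). Libraries 6 and 8, which stand apart above, gave 40 and 14 of the 96 negative cells, 3 and 1 of the 27 positive cells, and 17 and 10 of the 35 cells with Trac. Without both, a setting chosen after the data were seen, Trac was in 1 of 23 (4.35%) and 7 of 42 (16.7%), Gzmb in 2 of 23 and 10 of 42 (23.8%), Klrd1 in 0 of 23 and 27 of 42 (64.3%), Nkg7 in 2 and 29, and Il17a in 7 and 1. Cd27 was then in 0 and 8 (19%), and Gzmk, Eomes, Ifng, Prf1, Xcl1 and Fasl were in 0 Cd163l1-positive and 2, 5, 1, 4, 12 and 7 Cd163l1-negative cells. The log2 ratio of summed Trac CPM, -1.83 over all libraries, was -0.00 without both, so the difference in CPM rested on them. The Cd163l1-positive side of both ratios was 4 UMIs of 1 library 4 cell. The value of -0.00 therefore does not show the 2 sets to be equal.

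With every cell thinned to 1000 UMIs, which left 22 Cd163l1-positive and 81 Cd163l1-negative cells, Il17a was in 31.8% and 1.23%, Klrd1 in 0 and 37%, and Nkg7 in 4.55% and 67.9%. The cells kept the Cd163l1 class given at full depth, and 63.6% of the 22 positive cells still held a Cd163l1 UMI after thinning. Of all 123 cells, 28 held a UMI of Cd163l1, Il17a, Il23r, Blk or Sox13 and none of Cd27, Klrd1 or Nkg7, 84 held the reverse, 2 held both and 9 held neither. The genes of this count were picked after their values were seen. The reverse class made up 37 of the 43 library 6 cells and 13 of 15 in library 8, whereas 5 of 6 in library 4 were in the first class and 1 held both.

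**Figure D4:**
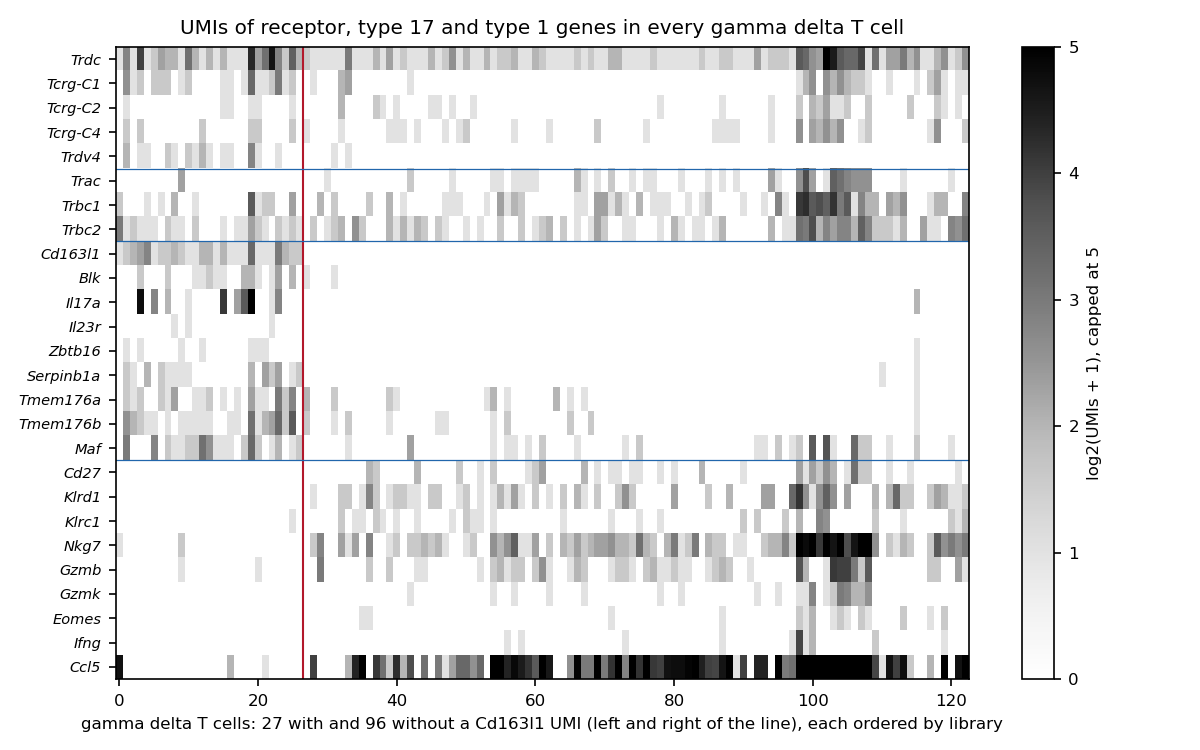
UMIs of receptor, type 17 and type 1 genes (rows) in each of the 123 gamma delta T cells (columns), shown as log2(UMIs + 1) capped at 5. The 27 cells left of the red line had a Cd163l1 UMI, and the type 1 genes below the lowest blue line are nearly blank there.

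**Figure D5:**
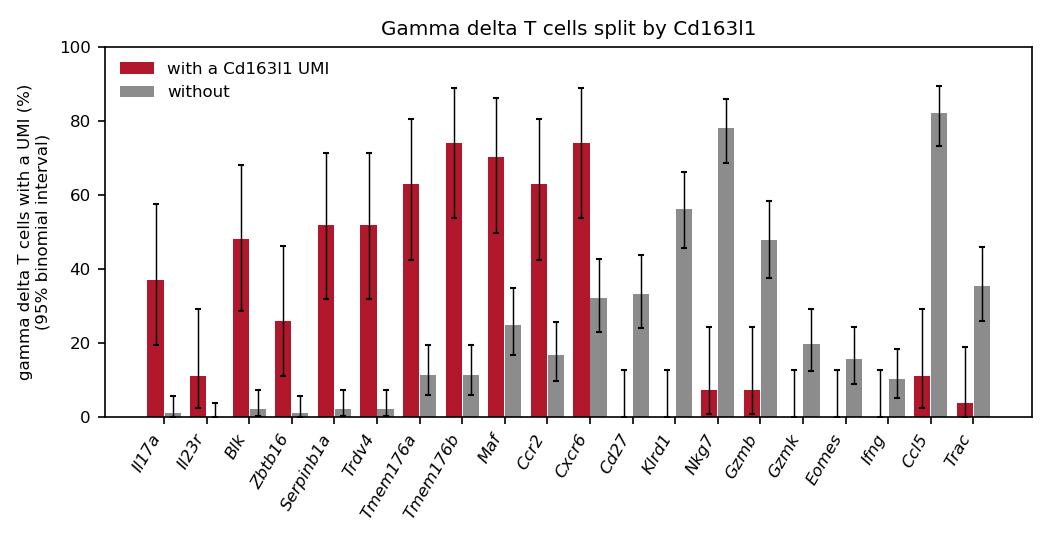
Share of gamma delta T cells with a UMI (y axis, percent, 95% exact binomial intervals) among the 27 cells with and the 96 without a Cd163l1 UMI. Il17a was in 37% and 1.04%, and Klrd1 in 0 and 56.2%.

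Some homing and tissue genes differed along the same line. Of the 15 genes in the residency and homing list 11 had at least 20 UMIs, and not all of these were called. Over all 2727 genes 6.56% were higher and 5.24% lower in Cd163l1-positive cells by the stricter rule. Ccr2, a receptor for monocyte chemokines, was detected in 17 of 27 Cd163l1-positive cells (63%) and 16 of 96 Cd163l1-negative cells (16.7%), with a CPM ratio of 7.87 (4.75 to 13.2). Cxcr6, a receptor of tissue-resident lymphocytes, was in 20 (74.1%) and 31 (32.3%), and Il7r, the interleukin 7 receptor, in 21 (77.8%) and 37 (38.5%). Without libraries 6 and 8 Il7r was in 18 of 23 (78.3%) and 25 of 42 (59.5%), so its gap in shares was smaller there. Cxcr6 was then in 17 (73.9%) and 6 (14.3%), and Ccr2 in 13 (56.5%) and 4 (9.52%). In the residency and homing list, Itgae, Itgb7, Cd69, Cxcr6, Ccr2 and Cd44 were higher by the stricter rule and stayed at least 2-fold higher without any 1 library, whereas Rgs1 went from a log2 ratio of 1.03 to 0.80 without library 8. Itgb7 was at 0.80 without libraries 6 and 8. Ccr7, the receptor for lymph node chemokines, was detected in 0 and 16 cells. Dendritic cell transcripts were 0.134% of UMIs in Cd163l1-positive and 0.489% in Cd163l1-negative cells (0.261% without the deepest barcode), with H2-Ab1 and Cd74 lower in the positive cells, at log2 ratios of -1.77 and -1.89 that became -0.90 and -0.93 without that barcode. Their part in the Ccr7 difference was not tested, and the log2 ratio of -4.37 for Ccr7 was -4.00 without that barcode. The barcode held 18 of the 60 Ccr7 UMIs, and library 6 barcodes with 33 and 45 Cd74 UMIs held 8 and 9. A library 7 barcode with 1 Cd74 UMI held 7. The ratio of -4.00 leaves out only the first of these. In the costimulatory receptor list Icos was higher, at 48 and 115 UMIs. Tnfrsf9, Tnfrsf4, Tnfrsf18, Cd28 and Cd27 held 0 to 2 UMIs in Cd163l1-positive cells and 33 to 102 in the others, so they, like Ccr7, reached 20 UMIs only through the set in which they were high. Tnfrsf9, which encodes 4-1BB, was in 1 (3.7%) and 30 (31.2%), and Tnfrsf18 in 2 (7.41%) and 50 (52.1%). Of the inhibitory receptor genes, Ctla4 held 6 and 102 UMIs, and its log2 ratio of -1.43 became -0.74 without the 6 library 8 cells with Tcrg-V4. Lag3 and Havcr2 held 1 UMI each in Cd163l1-positive cells, and their log2 ratios of -2.78 and -2.49 became -1.10 and -0.98 without library 8. Pdcd1 was in 44.4% and 31.2% with a CPM ratio of 1.57 (0.969 to 2.47), and in 11 of 23 (47.8%) and 5 of 42 (11.9%) without libraries 6 and 8. Of the heat shock and immediate early genes, Hspa1a, Hspa1b and Jun were higher in the Cd163l1-positive cells and stayed at least 2-fold higher without any 1 library. Hsph1, Fos, Fosb, Ier2 and Dusp1 were higher over all libraries, and each fell under 2-fold without 1 library, Hsph1 from a log2 ratio of 1.91 to 0.69 without library 4. Hspa1a and Hspa1b, at 5 and 3 UMIs in Cd163l1-negative cells, reached 20 UMIs only through the positive ones, and their log2 ratios of 4.45 and 6.01 were 3.05 and 4.09 without library 4. Hspa1b was in 9 and 3 cells, and library 4, with 6 of the 27 positive cells, had the highest share of these transcripts, whose part in the split was not tested.

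Beside CD8 T cells, 11200 genes had at least 20 UMIs over both gates. Of these, 626 (5.59%) were at least 2-fold higher and 842 (7.52%) at least 2-fold lower in gamma delta T cells in the sums and in library 6, and the counting interval excluded 1 for 238 (2.12%) and 194 (1.73%). Without library 6, where no library then had to share the direction, 1311 genes were at least 2-fold higher. Among type 17 genes Il17a, Blk, Cd163l1, Tmem176a and Tmem176b were higher by the stricter rule and none was lower. Il17a and Blk held 3 UMIs each in CD8 T cells and Cd163l1 held 16, so these genes passed the 20-UMI limit only through gamma delta T cells. Of the 20 type 1 and cytotoxic genes 0 were higher and 2 lower, Xcl1 and Crtam, with a median log2 ratio of -0.31 against 0.05 for all genes. Crtam held 1 UMI in gamma delta T cells. Nkg7 was in 62.6% of gamma delta T cells and 89.7% of CD8 T cells, with a CPM ratio of 0.805 (0.738 to 0.875), and Klrd1 in 43.9% and 58.2%, with a ratio of 0.874 (0.744 to 1.02). Gzmb was at 420 and 590 CPM, a ratio of 0.711 (0.603 to 0.833), and Ccl5 at 8032 and 6048 CPM, a ratio of 1.33 (1.28 to 1.38). These sums cover opposite directions. In library 6 the cells of the gate are best read only as CD3-positive Trdc-positive cells. They were above CD8 T cells for Gzmb (631 and 303 CPM), Klrd1 (543 and 348) and Nkg7 (1389 and 1037). In the other libraries the gamma delta T cells were below CD8 T cells for the same genes, at 363 and 646, 411 and 531, and 1510 and 2002 CPM. Ccl5 was at 11161 and 2522 CPM in library 6 and 7190 and 6735 CPM in the others.

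The genes with the largest ratios over CD8 T cells, among those with at least 20 UMIs in gamma delta T cells and the same direction in library 6, were Il17a, Trdv4, Blk, Cd163l1, Tcrg-C1, Tcrg-C4, Ramp1, Tmem64, Tmem176b, Plet1, Tmem176a, Ramp3, Cd7, Areg and Lmo4. Serpinb1a, at a CPM ratio of 25.5 (15.6 to 41.2), was left out of this order because no library 6 cell held it. Ramp1, a co-receptor for the neuropeptide CGRP, was detected in 20 cells of 10 libraries (16.3%) and in 5.05% of CD8 T cells, a CPM ratio of 6.41 (4.43 to 9.06). Cd7, a T and NK cell surface gene, was in 13.8% and 5.31%, a ratio of 3.51 (2.26 to 5.25). Areg, which encodes the epithelial growth factor amphiregulin, was in 17 cells, 8 of library 6 and 7 of library 8, and its log2 ratio of 1.75 became -0.39 without library 8. Plet1 was in 9 cells, and 1 cell held 53.3% of its UMIs. The log2 ratio of 2.31 for Plet1 was 1.34 without that cell. That cell, in library 8, was the deepest of all at 29360 UMIs and held 501 UMIs of Cd74 and 298 of H2-Ab1, antigen presentation genes, beside a single Trdc UMI. The 6 other cells with at least 3 Plet1 UMIs held 19 to 50 UMIs of Cd74 and 13 to 36 of H2-Ab1.

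Lower than in CD8 T cells stood a cluster of granzyme genes. Gzmf was at 1 UMI in gamma delta T cells and in 10.5% of CD8 T cells, and Gzmc was in 1.63% and 10.7%, a ratio of 0.0271 (0.00328 to 0.0981). Gzmd and Gzme were at 0 UMIs, at least 7.10-fold and 5.64-fold lower against a floor of 3 UMIs, and the cytokine gene Ccl1 at least 16.6-fold lower. Single libraries moved these values: with 0.5 UMI added, the log2 ratio went from -7.04 to -5.70 for Gzmf, from -4.88 to -3.77 for Gzmc and from -5.41 to -4.79 for Gzmd without library 5, and from -5.08 to -4.24 for Gzme without library 3. Without library 6 that of Gzmf was -8.43, and without library 10 that of Gzmc was -5.63. Aspm and Hist1h1d, genes of dividing cells, were at 0 UMIs, at least 3.09-fold and 2.68-fold lower. S100a9 was at 1 UMI and belongs to the neutrophil list, of which 3 of 6 genes were lower, beside 1.73% of all genes. The lower genes S100a8, S100a9 and G0s2 held 3, 1 and 1 UMIs in gamma delta T cells. In CD8 T cells they held 994, 1365 and 241. They passed the UMI limit only through CD8 T cells, as did the genes named before them here. Neutrophil transcripts made up 0.0016% of UMIs in gamma delta T cells, 0.019% in CD8 T cells and 0.0855% in CD3-positive cells without Trdc, Cd8 or Cd4, and their part in this was not tested. Of 14 cell cycle genes 2 were lower by the same rule, Tyms and Cenpf, with a list median of -0.69 against 0.05 for all genes. Tyms and Cenpf held 12 and 6 UMIs in gamma delta T cells, so they too passed the limit only through CD8 T cells. Mki67 was in 14.6% and 18.1%, a CPM ratio of 0.498 (0.33 to 0.721).

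Beside NK cells, 6302 genes were tested, with 327 (5.19%) at least 2-fold higher and 367 (5.82%) lower, of which 276 (4.38%) and 254 (4.03%) also passed the counting interval. Trdv4, Tcrg-C1, Tcrg-C2 and Tcrg-C4 were higher, as were the type 17 genes Il17a, Blk, Cd163l1, Maf, Tmem176a and Tmem176b. The log2 ratios of the last 2, 1.05 and 1.19, were 0.70 and 0.96 without library 5. Of these, Tcrg-C2, Il17a, Cd163l1 and Blk were at 0 UMIs in NK cells, Tcrg-C1 at 1, Tcrg-C4 at 11 and Trdv4 at 15, so they were tested only because gamma delta T cells held them. Of TCR signalling genes Cd247, Fyn, Zap70, Lat, Cd2 and Cd28 were higher over all libraries, and Lat, at 17 UMIs in NK cells, passed the limit in the same way. Fyn, Cd2 and Cd28 fell under 2-fold without library 8 and Zap70 without library 12. The 7 NK markers were lower, 3 of which (Klrb1c, Eomes and Gzma) are also in the type 1 and cytotoxic list. Klra4, Klra8, Klrb1c and Gzma held 0, 1, 9 and 16 UMIs in gamma delta T cells, so they were tested only because NK cells held them. Klra4, a Ly49 receptor gene, was at 0 UMIs and at least 35.1-fold lower, and Gzma was in 5.69% and 52.7%, a ratio of 0.0132 (0.00754 to 0.0215), or 0.00541 with NK cells weighted to the libraries of the gamma delta T cells. The log2 ratio of -6.20 for Gzma was -7.09 without library 6, and that of Klra4 went from -7.72 to -7.04 without library 8. Gzmc was at 5.35 and 6867 CPM, a log2 ratio of -10.00 that was -9.39 without library 8 and -10.74 without library 10. For Gzmf, which was in 10 NK cells, the log2 ratio of -6.98 became -1.47 without library 5. Of 20 type 1 and cytotoxic genes 9 were lower, among them Tbx21, Eomes, Gzmb and Prf1, and 4 were higher, Ifng, Cd27, Gzmk and Ccl5. Among the 9, Tbx21, Klrb1c, Gzma and Crtam held 12, 9, 16 and 1 UMIs in gamma delta T cells and were tested only through NK cells. The log2 ratio of Klrk1, also lower, went from -1.14 to -0.94 without library 6. Gzmk held 5 UMIs in NK cells, and its log2 ratio of 4.31 became 2.70 without library 8. Without that library Ifng went from 1.14 to -0.36, so its direction rested on it, and Tbx21 from -1.24 to -0.78. Cxcr6 was in 41.5% of gamma delta T cells and 2.51% of NK cells, a ratio of 31.5 (17.1 to 64.5). Pdcd1 was in 34.1% and 2.09%, a ratio of 26.4 (14.2 to 54.2). With NK cells weighted to the libraries of the gamma delta T cells these ratios became 23.3 and 6.33. Cxcr6 and Pdcd1 each held 11 UMIs in NK cells, so they passed the 20-UMI limit only through gamma delta T cells.

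Beside CD4 T cells, 9090 genes were tested, with 287 (3.16%) at least 2-fold higher and 498 (5.48%) lower, and 140 (1.54%) and 187 (2.06%) by the stricter rule. Without library 6, 519 were at least 2-fold higher. Trdv4, Tcrg-C1, Tcrg-C2, Trgv2 and Tcrg-C4 were higher, as were Klrd1, Klrc1, Gzmb, Ccl5 and Ly6c2 of the type 1 and cytotoxic list. The log2 ratio of Ccl5, 1.16, was 0.95 without library 6 and 2.12 without library 8, that of Tcrg-C1, 3.28, was 2.45 without library 8 and 6.26 without library 9, and that of Trgv2, 2.78, was 1.12 without library 8. Trdv4 was at 0 UMIs in CD4 T cells and Tcrg-C4 at 9, so both passed the 20-UMI limit only through gamma delta T cells. Of 7 costimulatory receptor genes 3 were lower, Tnfrsf9, Tnfrsf4 and Tnfrsf18, and Tnfrsf9 went from a log2 ratio of -1.13 to -0.97 without library 5. Il1rl1 and Il13 of the ILC2 list were lower, at 0 UMIs in gamma delta T cells, and without library 1 the log2 ratio of Il13, with 0.5 UMI added, went from -3.64 to -1.83. The 3 comparisons share the gamma delta T cells, so their counts are not independent.

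Genes close to the aim of the study were read in the same cells. Ezh2, the target of the inhibitor, was detected in 12 gamma delta T cells (9.76%, 5.14 to 16.4) and in 20.9% of CD8 T cells, with a CPM ratio of 0.483 (0.275 to 0.788). Ezh1, its paralog, had a ratio of 1.97 (1.09 to 3.29). These were the calls among the 11 PRC2 genes by the stricter rule, by which 1.73% of all genes were lower and 2.12% higher, so nothing is read from the list. Without library 8 the log2 ratio of Ezh2 went from -1.01 to -0.74 and that of Ezh1 from 1.02 to 0.66. Bcl2l11, which encodes the death factor BIM, was in 36.6% and 37.8%, a CPM ratio of 1.32 (1.05 to 1.64), and Bcl2, the survival gene it opposes, in 50.4% and 60.8%, a ratio of 1.11 (0.952 to 1.3). Beside CD4 T cells Bcl2l11 was higher by the stricter rule, at a log2 ratio of 1.19 that was 1.09 without library 11. Pmaip1 of the same list was lower there, at -1.08, or -0.96 without library 2. Within gamma delta T cells Bcl2l11 was in 4 of 27 Cd163l1-positive cells (14.8%, 4.19 to 33.7) and 41 of 96 Cd163l1-negative cells (42.7%, 32.7 to 53.2). Tcf7, a gene of memory and stem-like T cells, was in 10.6% of gamma delta T cells and 10.3% of CD8 T cells. Since the labels do not tie the libraries to a treatment, these values average over EZH2i and vehicle.

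Transcripts of other cell types were measured in the same barcodes. All 12 macrophage and monocyte markers were detected and made up 0.31% of UMIs in gamma delta T cells, from 0.0666% to 0.633% over libraries, beside 0.292% in CD8 T cells, 0.411% in NK cells and 4.93% in macrophages. Apoe was in 78.9% of gamma delta T cells, 82.8% of CD8 T cells and 62.6% of B cells. Cd79a, Ms4a1 and Pax5 of the B cell list, Il1rl1, Il13 and Il5 of the ILC2 list, all 5 mast cell and basophil genes and all 4 hemoglobin genes were at 0, as were the keratin genes Krt8, Krt18 and Krt19. Dendritic cell genes made up 0.437% of UMIs, 0.241% without the deepest barcode, and 0.244% in CD8 T cells. Over libraries the share ran from 0 to 0.659% with a median of 0.0303%, so it was uneven. Cd74 was detected in 47 of the cells. Barcodes other than the deepest were also high in these genes. A library 5 cell held 56 Cd74 and 41 H2-Ab1 UMIs, and a library 6 cell held 50 and 26. Their part in the results was not tested.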

How the data were processed

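CD45+ cells were profiled by 3' single-cell RNA sequencing. Per the labels and the study's methods, the authors aligned reads to mm10 with Cell Ranger (version 2.1.1 in the submitters' processing notes, 3.0.2 in the header of the matrix) and worked in Seurat. The deposited file holds UMI counts, not normalized, for 31053 genes in 140639 barcodes of 12 numbered libraries. The numbers are not tied to a mouse or group in the labels, so the barcodes were treated as 1 pooled sample and no test across mice was run. Total UMIs per library ran from 2.16499e+07 to 1.5876e+08.

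Quality filtering kept barcodes with more than 200 but fewer than 5000 genes whose mitochondrial share of UMIs did not exceed 10%. CD8 and CD4 T cells were CD3-positive cells with Cd8a or Cd8b1, or with Cd4, and no Trdc. NK cells had Ncr1 and no CD3 UMI, B cells Cd79a and Ms4a1, and macrophages Adgre1 and Csf1r, so differences in these genes follow from the gates. Doublets were not called, and the excluded genes of the rule remove part of them. Shares of cells have 95% exact Clopper-Pearson intervals, and ratios of CPM of summed UMIs have exact conditional intervals. Both cover counting error only. A sum of UMIs gives deep cells more weight than a share of cells does. The 15 library 8 cells had a median of 7458 UMIs, against 1830 over all 123 cells. The deepest cell alone held 7.85% of the UMIs of all 123. A gene was called at a 2-fold ratio (0.5 UMIs added, at least 20 UMIs over both gates, 1 direction in every library with at least 20 cells of both gates). The stricter rule, added after the values were seen, also required that the counting interval exclude 1. Named genes are those of the lists and the 15 highest and 10 lowest called ratios with at least 20 UMIs in the higher gate, of which a part is described. Genes at 0 were set against a floor of 3 UMIs. The share of cells allowed by a count of 0 is given as 3 over the number of cells. This approximate 1-sided 95% bound is lower than the upper limit of the exact interval. Some genes of the lists are not reported here. The cells and the lists were chosen with earlier results of these data known. Gene positions are from GENCODE M21, which held 30934 of the 31053 identifiers, and promoters from RefSeq. Scripts used Python 3.11.15, numpy 2.4.6, scipy 1.17.1 and pandas 2.3.3, and the fold and interval code was tested on simulated data.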

Additional observations from a re-analysis of the deposited data

How the results depend on the processing

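Of 292 values recomputed for 10 results, 234 stayed within the spread set for them and 58 moved. Leave-one-out values, without 1 library at a time, ran from 80 to 121 cells, 25.9% to 46.2% with Tcrg-C1, 17.9% to 30% with Cd163l1, 7.83% to 11.2% with Il17a and 83.3% to 88% with an alpha beta TCR constant UMI. The share of Cd163l1-positive cells with another type 17 gene (Il17a, Il23r, Blk or Sox13) ran from 57.1% to 70.8%. Genes at least 2-fold higher ran from 613 to 1311 against CD8 T cells, 281 to 519 against CD4 T cells and 295 to 413 against NK cells, and those lower than in CD8 T cells from 844 to 1029. The highest of the first 2 counts came without library 6, the only library in which a direction was required.

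With at least 2 Trdc UMIs 65 cells remained, 46.2% with Tcrg-C1, and 1373 and 614 genes were higher than in CD8 and CD4 T cells. With a Tcrg constant UMI required there were 66 cells, 59.1%, 1389 and 626 genes. Without any Trac, Trbc1 or Trbc2 UMI 18 cells remained, 22.2% with Tcrg-C1 and by construction 0% with an alpha beta UMI, and 4881, 2485 and 1052 genes were higher than in CD8 T, CD4 T and NK cells. In these settings no library held 20 cells of both gates, so no direction was required. Their counts against CD8 T cells are to be set beside the 1154 below, not beside 626. Thinned to 1000 UMIs, 21.4% held Tcrg-C1, 12.6% Cd163l1 and 70.9% an alpha beta UMI. The only library with at least 20 cells, library 6, had 4.65% and 6.98% with Tcrg-C1 and Cd163l1. Counts of genes higher than in CD8 T cells were 1787 with 5 UMIs added (20 lower), 1154 with no direction required, 56 with at least 20 UMIs in the higher gate, 24 with the direction required in every library with at least 8 cells of both, 337 with CD8 T cells weighted to the libraries of the gamma delta T cells (1371 lower) and 238 by the counting interval (194 lower). Per-cell CPM gave 1272 lower. Against CD4 T cells the counts were 716 with all genes tested, 1054 with 5 UMIs added, 540 by per-cell CPM, 41 with at least 20 UMIs in the higher gate, 18 with the direction in libraries of at least 8 cells and 140 by the interval. Against NK cells they were 1063 with all genes tested, 188 with at least 20 UMIs in the higher gate, 51 with the direction in libraries of at least 8 cells and 519 with NK cells weighted to libraries.

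The following were chosen after seeing the data, as were the 20-UMI, 8-cell, weighting and interval settings. Among the 12 cells without a C1qa, C1qb, C1qc, Apoe or Lyz2 UMI, 58.3% held Tcrg-C1, 50% Cd163l1, 16.7% Il17a and 91.7% an alpha beta UMI, with 540 genes lower than in CD8 T cells and 40 and 17 higher than in CD4 T and NK cells. In libraries 1 to 6, 17.4% held Tcrg-C1 and 1024 genes were higher than in CD8 T cells. Libraries 7 to 12 held 37 cells, 64.9% with Tcrg-C1 and 94.6% with an alpha beta UMI, with 1185 and 539 genes higher than in CD8 and CD4 T cells. Neither the 12 cells nor libraries 7 to 12 gave a library with 20 gamma delta T cells, so no direction was required for their counts. The cause of these moves was not tested. No paired analysis was possible because the labels do not tie the library numbers to a mouse or group and no result comes from a test across samples. The 123 cells had a median of 1830 UMIs each. By the approximate bound used above, a gene at 0 allows UMIs in up to 2.44% of them. That bound lies below the upper limit of the exact interval and is no limit on the cells that express the gene.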
